A study of Homo sapiens with 6 samples.

Results

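The Wnt ligands, receptors and antagonists were followed in LN229, an established human glioblastoma cell line, across 6 total RNA libraries. The genes were taken by name from the deposited gene tables: all WNT and Frizzled (FZD) genes, DKK1 to DKK4, the SFRP genes, and 18 further receptors, regulators and transcription factors of the pathway. This gave 55 of the 28265 genes in the tables. Of these 55, 34 had enough reads to be tested and 21 did not.

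There were 3 libraries labelled TRIM25 knockdown, for which the series design names a hairpin against TRIM25, and 3 libraries labelled WT, both from LN229 cells grown in the same serum-containing medium. TRIM25 is an E3 ubiquitin ligase. The labels do not say what the WT cells carried or whether the lines were clones. The titles of the WT libraries carry NC, which is not explained. Separate cultures are not mentioned either, and the p-values therefore reflect variation among these libraries alone, which may be technical. TRIM25 itself had 964, 905 and 1443 reads in the libraries labelled knockdown and 561, 493 and 563 reads in the WT libraries. On the log2 scale it was higher by 1.22 ± 0.07 (SE; edgeR adjusted p = 3.23e-09, from the quasi-likelihood test with Benjamini-Hochberg adjustment), which goes against the label. Every direction below is therefore that of the libraries labelled knockdown relative to WT, and none can be read as the effect of losing TRIM25 mRNA.

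Total counts ranged from 11349865 to 16404725 in the libraries labelled knockdown and from 13763400 to 15868470 in the WT libraries. On the second principal component (16.6% of the variance) labelled knockdown replicate 1 had the most extreme score, -19.8. LN229 is known to carry a homozygous deletion of CDKN2A, and that gene had 1 read in the 6 libraries together. Of the 8 glioma and neural progenitor genes examined, VIM, NES, CD44, SOX2 and S100B were above 100 TPM, a level scaled for gene length and library total, in both groups and GFAP was near 0 (0.114 TPM in the libraries labelled knockdown and 0.177 TPM in WT). Of these 8, SOX2 (-0.66 on the log2 scale), OLIG2 (-0.67) and S100B (-0.33) were lower and NES was higher (0.27), while VIM, CD44 and EGFR did not pass (edgeR adjusted p of 0.0557, 0.789 and 0.826). The summed level of 4 leukocyte markers was 99.3 to 117.6 TPM in the libraries labelled knockdown and 71.8 to 76.0 TPM in WT. Nearly all of it came from CD68, a lysosomal gene, while PTPRC had 19 reads in all. Neuron markers summed to 40.4 to 46.1 TPM in the libraries labelled knockdown and 43.4 to 45.2 TPM in WT, with SYT1 higher (0.27 on the log2 scale) and SNAP25 lower (-0.38). Endothelial and epithelial markers each summed to at most 0.958 TPM in every library. The part of these differences in the results was not tested. In bulk RNA, fewer cells expressing a gene and less RNA of it per cell cannot be told apart.

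Wnt proteins are secreted, lipid-modified ligands. They bind Frizzled receptors together with the co-receptors LRP5 or LRP6, which stops the APC and axin destruction complex from degrading beta-catenin (CTNNB1), and beta-catenin then activates genes through TCF/LEF factors. Other branches run through ROR and RYK receptors and planar polarity proteins without beta-catenin. Secreted antagonists of the DKK and SFRP families, and the ubiquitin ligases RNF43 and ZNRF3, which remove Frizzleds from the cell surface, limit the signal. In glioblastoma the pathway is known for its links to stem-like growth and, through WNT5A, to invasion.

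The promoters of FZD1, LRP5 and ROR1 are shown because these are the 3 expressed receptor genes with the largest called differences, chosen after their values were seen. Each line gives the 250 bases before the RefSeq start site (GRCh38.p14), 5′ to 3′ on the gene's strand, with the GC box GGGCGG, on either strand, in capitals.
FZD1 promoter, chr7:91264183-91264432, plus strand: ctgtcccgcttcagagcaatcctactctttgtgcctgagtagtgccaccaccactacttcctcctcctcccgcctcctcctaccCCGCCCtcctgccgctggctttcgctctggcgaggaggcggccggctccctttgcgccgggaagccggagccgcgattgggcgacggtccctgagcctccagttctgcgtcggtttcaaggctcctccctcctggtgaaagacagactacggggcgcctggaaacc
LRP5 promoter, chr11:68312341-68312590, plus strand: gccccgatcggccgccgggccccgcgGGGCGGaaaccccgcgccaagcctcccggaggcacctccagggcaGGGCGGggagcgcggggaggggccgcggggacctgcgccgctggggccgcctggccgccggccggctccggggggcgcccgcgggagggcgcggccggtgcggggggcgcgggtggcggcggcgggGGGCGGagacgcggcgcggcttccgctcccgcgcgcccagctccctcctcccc
ROR1 promoter, chr1:63773767-63774016, plus strand: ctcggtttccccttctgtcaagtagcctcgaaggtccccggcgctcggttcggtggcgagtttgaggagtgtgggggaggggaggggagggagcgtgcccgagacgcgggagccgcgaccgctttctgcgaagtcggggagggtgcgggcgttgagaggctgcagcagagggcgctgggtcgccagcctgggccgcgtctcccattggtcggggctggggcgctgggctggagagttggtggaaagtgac

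LRP5 has 43 CpG dinucleotides in this window and 87.2% GC, FZD1 has 19 and 65.2%, and ROR1 has 24 and 69.2%. The GC box was found in 42.3% of all 27305 promoters of this length and in 31 of the 39 Wnt genes that had one in the table. The TCF/LEF core CTTTGAT, searched on both strands, was in 2.28% of all promoters and in 0 of these 39. A match or its absence in this short window says nothing about where a factor binds.

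Of the 34 tested Wnt genes, 6 were higher and 6 were lower in the libraries labelled knockdown, and 22 did not pass an edgeR adjusted p of 0.05. The genes that rose were the receptors FZD1 and ROR1, the scaffold APC, the antagonist SFRP1, the ubiquitin ligase RNF43 and the ligand WNT5A. Those that fell were the co-receptor LRP5, the antagonist family member DKK3, the receptor FZD7, the transcription factors TCF7 and TCF7L2 and the ligand WNT10B. These are 17.6% of the tested Wnt genes in each direction. Among all 14315 tested genes 12.2% were higher, 11.0% were lower and 23.3% passed in either direction. The median log2 fold change of the 34 was -0.06, against -0.0038 for all tested genes. In 17 of the 34 (50%) the groups did not overlap in CPM (reads scaled to the library total), against 37.3% of all tested genes. FZD1, LRP5, ROR1, APC, SFRP1 and DKK3 kept their calls under all 15 other settings tried, and the other 6 lost theirs in at least 1. Without labelled knockdown replicate 2, WT replicate 2 or WT replicate 3, 4 Wnt genes were higher and 2 lower, as the share of all genes called came down to 12.8%, 12.5% and 13.1%. Without labelled knockdown replicate 3, 5 were higher and 3 lower, and without labelled knockdown replicate 1, 7 and 7, with 33.8% of all genes called.

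**Figure D1:**
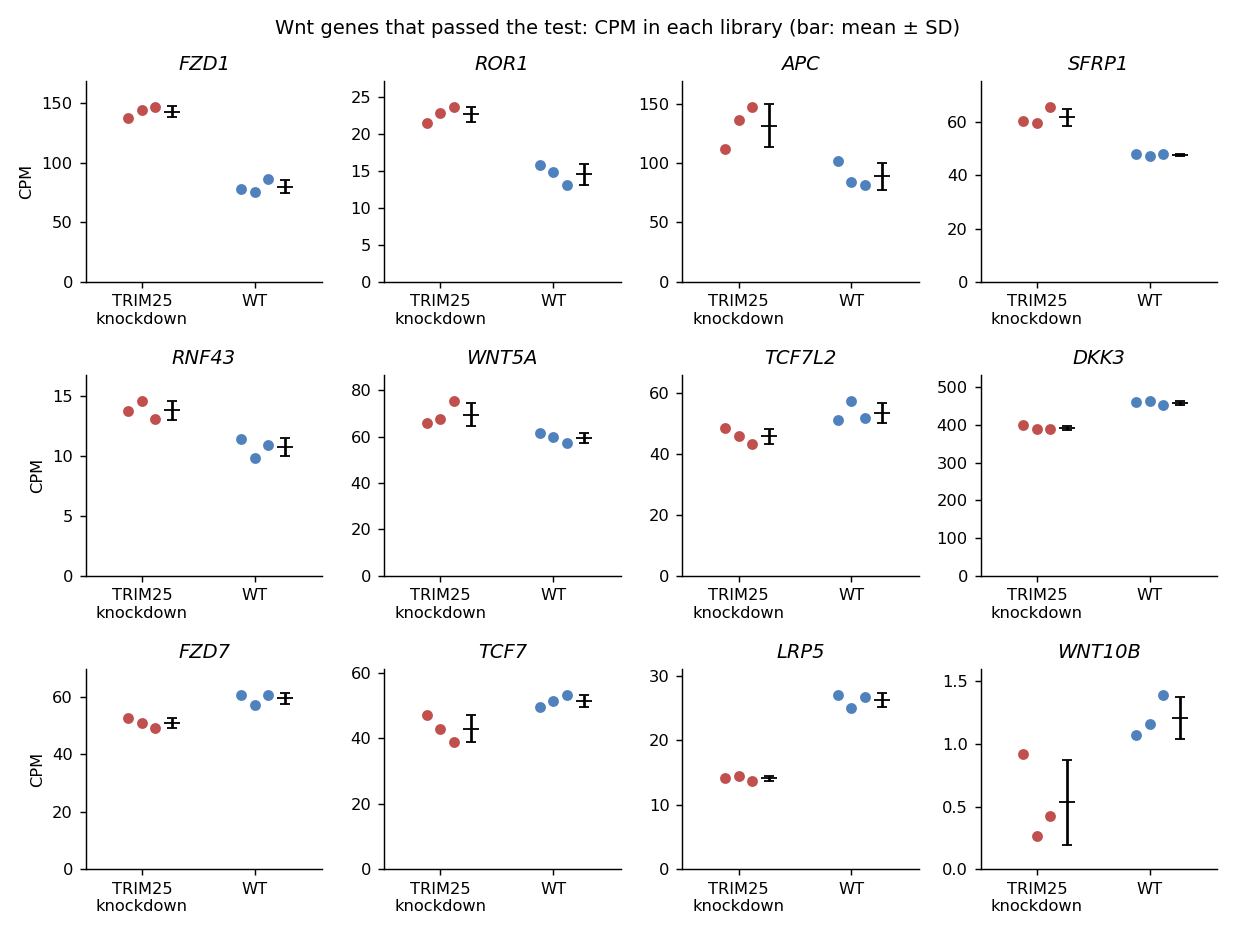
CPM of the 12 Wnt genes that passed the test, by library (points; left, labelled TRIM25 knockdown; right, labelled WT), with mean ± SD (n = 3) beside them; each vertical axis starts at 0. The groups did not overlap in any of the 12 genes, and in 37.3% of all tested genes. The 12 were chosen by a test on these same libraries, so this is no separate support. FZD1 averaged 142.8 CPM in the libraries labelled knockdown and 80.0 CPM in WT. LRP5 averaged 14.1 CPM in the libraries labelled knockdown and 26.3 CPM in WT.

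Few Wnt ligands were expressed. Of 19 ligand genes 6 were tested, and WNT5A, which mostly signals without beta-catenin, held the larger part of their RNA. Its share of the summed TPM of all 19 was 73.9% ± 2.74 in the libraries labelled knockdown and 67.9% ± 3.0 in WT (SD, n = 3 each), and the groups overlapped. WNT5A had 65.8, 67.4 and 75.4 CPM in the libraries labelled knockdown and 61.6, 59.9 and 57.3 CPM in the WT libraries. All 3 labelled knockdown values were above the highest WT value. The difference was 0.23 ± 0.07 on the log2 scale (SE; edgeR adjusted p = 0.0280). It was lost without labelled knockdown replicate 2 or 3 or WT replicate 2 or 3 (edgeR adjusted p from 0.0663 to 0.131). With an adjustment for gene length it was 0.15 (edgeR adjusted p = 0.0553), and with length and GC content 0.14 (0.0284).

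WNT10B, a ligand that activates beta-catenin, had 11, 3 and 7 reads in the libraries labelled knockdown and 17, 16 and 22 reads in WT. Its log2 fold change was -1.17 ± 0.38 (SE; edgeR adjusted p = 0.0325). At these counts the call was lost with DESeq2 (adjusted p = 0.0982) and without labelled knockdown replicate 2 or 3 or WT replicate 2 or 3 (edgeR adjusted p from 0.0775 to 0.143). WNT3, the next ligand by level at 4.75 ± 0.0957 TPM in the libraries labelled knockdown and 5.40 ± 0.533 TPM in WT (SD, n = 3 each), differed by -0.24 on the log2 scale (95% interval -0.52 to 0.05). WNT2B, WNT5B and WNT6 stood between 0.379 and 2.14 TPM in the group means and did not pass. The WNT2B log2 difference was 0.59 (95% interval 0.07 to 1.12; edgeR adjusted p = 0.0953). WNT2B shares 2661 of its 12561 exonic bp with ST7L on the opposite strand. Over the 6 libraries ST7L averaged 16.4 CPM and WNT2B 2.08 CPM. The remaining 13 ligand genes were not tested. WNT10A had 41 reads over the 6 libraries, WNT9A 27 and WNT7B 10. WNT1, WNT3A, WNT4, WNT7A, WNT8A, WNT8B, WNT11 and WNT16 had 1 to 4 each. WNT2 and WNT9B had none, which over 85181147 reads allows up to 0.0352 CPM (3 counts), for counting error only.

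**Figure D2:**
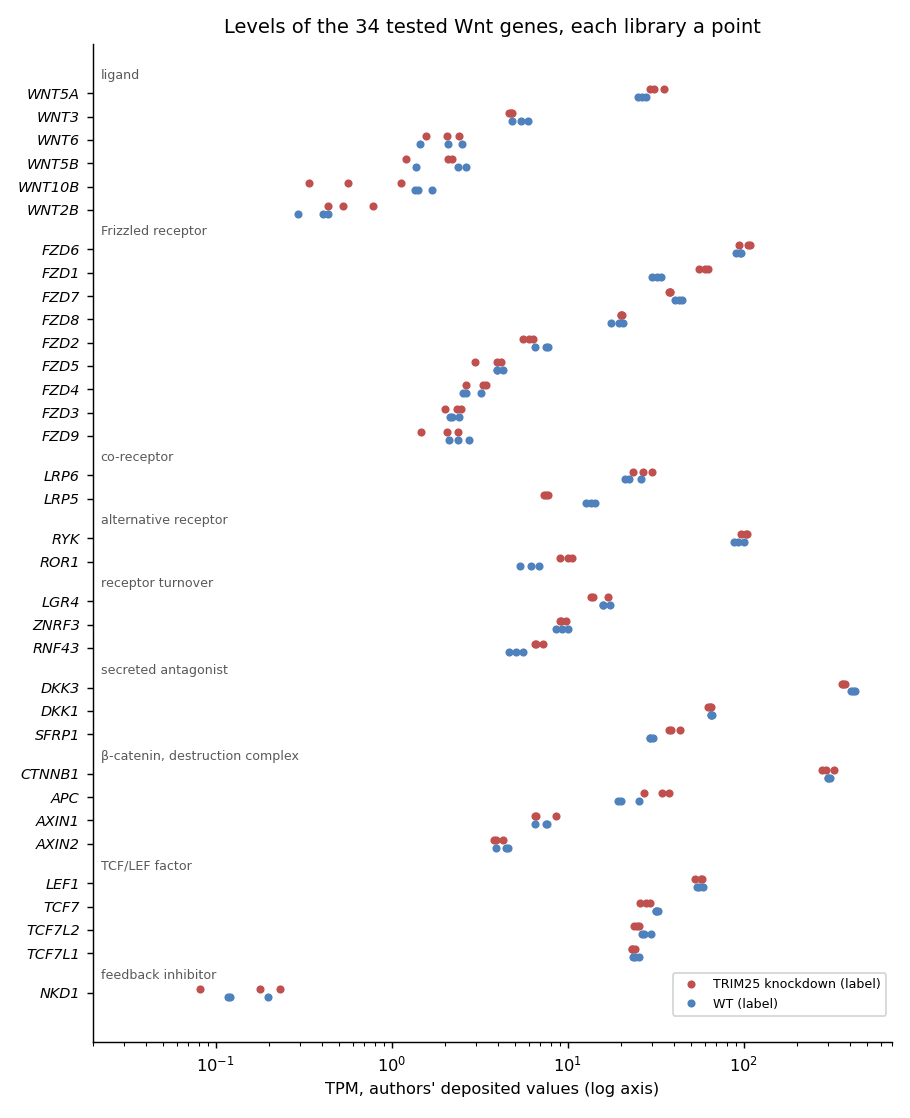
Authors' deposited TPM of the 34 tested Wnt genes on a log axis, grouped by role, with 1 point per library (red, labelled TRIM25 knockdown; blue, labelled WT). FZD1 lies above FZD7 in the libraries labelled knockdown (59.4 and 37.9 TPM) and below it in WT (32.1 and 42.8 TPM).

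Among the 10 Frizzled genes FZD1 rose and FZD7 fell, and the order of these receptors by level per length differed between the groups. FZD1 had 137.6, 144.1 and 146.7 CPM in the libraries labelled knockdown and 78.1, 75.7 and 86.4 CPM in WT. The groups were far apart, with a gap larger than the range within either. The fold difference was 1.78, or 0.83 ± 0.07 on the log2 scale (SE; edgeR adjusted p = 1.97e-07). FZD7, a close relative of FZD1, had 52.6, 51.0 and 49.1 CPM in the libraries labelled knockdown and 60.8, 57.3 and 60.7 CPM in WT. Each labelled knockdown library was below each WT library. The FZD7 difference was small, at -0.23 ± 0.07 on the log2 scale (SE; edgeR adjusted p = 0.0202). It passed without labelled knockdown replicate 1 and was lost without any other single library (edgeR adjusted p up to 0.0884, without WT replicate 3).

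Per length, FZD6 was the most abundant Frizzled in both groups, at 102.7 ± 7.35 TPM in the libraries labelled knockdown and 94.0 ± 3.60 TPM in WT (SD, n = 3 each). It did not pass (log2 difference 0.08, 95% interval -0.05 to 0.20). FZD1 came next in the libraries labelled knockdown, at 59.4 ± 3.59 TPM, ahead of FZD7 at 37.9 ± 0.333 TPM. In WT FZD7 came next, at 42.8 ± 1.92 TPM, ahead of FZD1 at 32.1 ± 1.96 TPM. The log2 ratio of FZD1 to FZD7 TPM was 0.55, 0.66 and 0.74 in the libraries labelled knockdown and -0.48, -0.44 and -0.33 in WT, so its sign split the libraries by label. FZD1 took 25% ± 0.399 of the summed Frizzled TPM in the libraries labelled knockdown and 15.5% ± 0.971 in WT, and the sum itself was 237.2 ± 11.6 TPM in the libraries labelled knockdown and 207.0 ± 5.74 TPM in WT. In this family of 23 shares, sums and ratios, an exact permutation test of 3 against 3 libraries cannot give a two-sided p below 0.1, and 16 of the 23 reached that value (0.144 after Benjamini-Hochberg adjustment). The measures share genes, and several were built from genes already called, such as FZD1 and FZD7. Their number is therefore no separate support for a difference. Among all tested genes taken singly, the groups did not overlap in CPM in 37.3%.

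FZD8 followed at 20.2 ± 0.188 TPM in the libraries labelled knockdown and 19.3 ± 1.47 TPM in WT, with a log2 fold change of 0.01 (95% interval -0.17 to 0.19). FZD2, the third member of the FZD1 and FZD7 subfamily, had 8.66, 7.95 and 7.18 CPM in the libraries labelled knockdown and 10.3, 10.3 and 9.05 CPM in WT. The groups did not overlap, but it missed the threshold (log2 fold change -0.32 ± 0.12, SE; edgeR adjusted p = 0.0599). It passed without labelled knockdown replicate 1 (0.0238), with upper-quartile factors (0.0478) and with the length adjustment (0.0446). FZD3, FZD4, FZD5 and FZD9 stood between 1.98 and 4.07 TPM in the group means and did not pass. FZD3 had a log2 difference of -0.04 (95% interval -0.27 to 0.18), FZD4 one of 0.11 and FZD5 one of -0.18 (95% interval -0.44 to 0.07). FZD4, with 661 reads, shares 1399 bp of exon on the opposite strand with PRSS23, which had 20922 reads. PRSS23 was lower, at -0.35 ± 0.05 on the log2 scale (SE). Without the strand setting of the counting, reads in the shared part cannot be told apart. FZD3 passed after the length and GC adjustment (log2 fold change -0.29, edgeR adjusted p = 0.0274). FZD10 had 1 read. The FZD1, FZD2 and FZD7 transcripts were largely distinct in sequence: 32 of 6914, 55 of 2063 and 20 of 3810 distinct stretches of 50 bases in their GENCODE transcripts also occurred in another gene.

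Of the Frizzled co-receptors, LRP5 fell and LRP6 did not pass. LRP5 had 14.2, 14.5 and 13.7 CPM in the libraries labelled knockdown and 27.05, 24.95 and 26.8 CPM in WT. The spread within each group was small beside the gap between them. It fell 1.87-fold, a log2 fold change of -0.90 ± 0.09 (SE; edgeR adjusted p = 1.45e-06). LRP6 had 87.0, 95.4 and 105.2 CPM in the libraries labelled knockdown and 94.9, 83.3 and 79.8 CPM in WT, and the groups overlapped. The log2 difference was 0.16 (95% interval -0.01 to 0.33; edgeR adjusted p = 0.161), and it passed only without labelled knockdown replicate 1 (0.0115). After the length and GC adjustment its value was near 0 (-0.0030). Per length, the LRP5 to LRP6 ratio was 0.283 ± 0.0319 in the libraries labelled knockdown and 0.585 ± 0.0496 in WT (SD, n = 3 each). On the log2 scale this ratio differed by -1.05, and all 3 labelled knockdown libraries lay below all 3 WT libraries (exact permutation test, two-sided p = 0.1, the smallest possible). LRP5 alone already separated the groups, so the ratio is no separate support.

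Of the receptors of the other branches, ROR1, a tyrosine kinase-like receptor for WNT5A, rose. It had 21.5, 22.8 and 23.6 CPM in the libraries labelled knockdown and 15.9, 14.8 and 13.0 CPM in WT, a 1.56-fold difference with no overlap, or 0.64 ± 0.09 on the log2 scale (SE; edgeR adjusted p = 0.000128). Its relative ROR2 had no read in any library. RYK was the more abundant per length, at 101.4 ± 3.94 TPM in the libraries labelled knockdown and 93.9 ± 6.08 TPM in WT (SD, n = 3 each). ROR1 stood at 9.88 ± 0.742 TPM in the libraries labelled knockdown and 6.14 ± 0.722 TPM in WT. RYK did not pass (log2 difference 0.06, 95% interval -0.07 to 0.19).

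**Figure D3:**
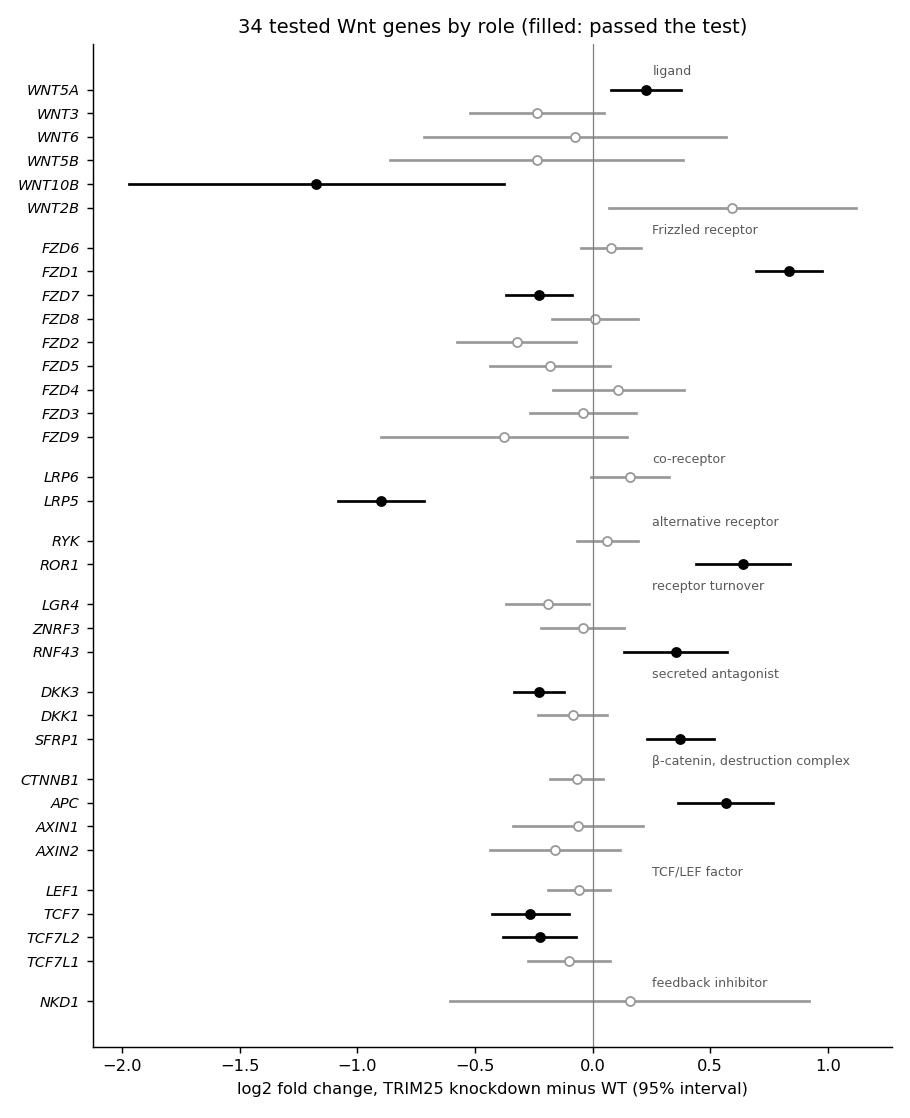
Log2 fold change (labelled TRIM25 knockdown minus WT) of the 34 tested Wnt genes by role, with 95% intervals; filled black points passed an edgeR adjusted p of 0.05 and open grey points did not. FZD1 (0.83), ROR1 (0.64) and APC (0.57) lie farthest to the right among the filled points, and WNT10B (-1.17) and LRP5 (-0.90) farthest to the left.

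Of the 3 genes that set receptor turnover, RNF43 rose and ZNRF3 and LGR4 did not pass. RNF43 had 13.7, 14.6 and 13.1 CPM in the libraries labelled knockdown and 11.4, 9.86 and 10.9 CPM in WT. It rose by 0.35 ± 0.10 on the log2 scale (SE; edgeR adjusted p = 0.0207). The call was lost with DESeq2 (adjusted p = 0.0546) and without labelled knockdown replicate 2 (edgeR adjusted p = 0.0955) or WT replicate 2 (0.107) or 3 (0.0548). RNF43 overlaps exons of SUPT4H1 by 143 bp in the same orientation (SUPT4H1 log2 difference 0.15 ± 0.06, SE) and those of TSPOAP1-AS1 by 1521 bp in the opposite one. A readthrough gene, AC004687.2, covers 4326 of its 7505 exonic bp and was not analysed here, so the RNF43 value is uncertain. For ZNRF3, its partner ligase, the log2 difference was -0.04 (95% interval -0.22 to 0.13). LGR4, the receptor through which R-spondins block both ligases, had 25.5, 25.5 and 30.1 CPM in the libraries labelled knockdown and 32.3, 30.4 and 30.4 CPM in WT. Its log2 fold change of -0.19 ± 0.08 (SE) missed the threshold (edgeR adjusted p = 0.111). The edgeR adjusted p was 0.0291 without labelled knockdown replicate 3, the highest of its group, 0.0224 with the length adjustment and 0.00246 with length and GC content.

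Of the 9 secreted antagonist genes 3 were expressed: SFRP1 rose, DKK3 fell and DKK1 did not pass. SFRP1, which binds Wnt ligands directly, had 60.3, 59.7 and 65.6 CPM in the libraries labelled knockdown and 48.1, 47.4 and 48.0 CPM in WT. The WT values were nearly identical and all below the labelled knockdown values. The difference was 1.29-fold, or 0.37 ± 0.07 on the log2 scale (SE; edgeR adjusted p = 0.000792). DKK3, a divergent Dickkopf member, was the most abundant gene of all 55, at 368.3 ± 5.46 TPM in the libraries labelled knockdown and 417.0 ± 12.05 TPM in WT (SD, n = 3 each). It had 398.6, 389.0 and 388.3 CPM in the libraries labelled knockdown, against 460.8, 463.6 and 453.3 CPM in WT, -0.23 ± 0.05 on the log2 scale (SE; edgeR adjusted p = 0.00332). The DKK3 difference was small but larger than the range within either group.

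DKK1, the classical LRP5 and LRP6 antagonist and itself a beta-catenin target, had 41.0, 40.3 and 39.8 CPM in the libraries labelled knockdown and 41.5, 42.9 and 43.9 CPM in WT. The groups did not overlap, yet the difference was only -0.08 on the log2 scale (95% interval -0.23 to 0.06; edgeR adjusted p = 0.403). The other 6 antagonists were not tested. SFRP4 had 25 reads in all, SFRP2 and DKK2 had 7 each, and SFRP5, DKK4 and WIF1 had 1 each.

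In the beta-catenin destruction complex APC rose, while the axins and beta-catenin itself did not pass. APC, the large scaffold of the complex, had 111.5, 135.8 and 147.0 CPM in the libraries labelled knockdown and 102.1, 83.6 and 81.1 CPM in WT. The groups did not overlap, but labelled knockdown replicate 1 and WT replicate 1 were close to each other. The log2 fold change was 0.57 ± 0.10 (SE; edgeR adjusted p = 0.000439). APC is long (11437 bp), and its value was 0.41 when adjusted for length (edgeR adjusted p = 6.24e-05) and 0.37 when adjusted for length and GC content (3.14e-06). CTNNB1 was the second most abundant of the 55 genes, at 299.7 ± 22.5 TPM in the libraries labelled knockdown and 303.4 ± 5.22 TPM in WT (SD, n = 3 each). The CTNNB1 log2 difference was -0.07 (95% interval -0.18 to 0.04). AXIN1 had 7.23 ± 1.1 TPM in the libraries labelled knockdown and 7.25 ± 0.596 TPM in WT, with a 95% interval of the log2 fold change from -0.34 to 0.22.

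AXIN2, the scaffold gene most used as a readout of beta-catenin activity, had 5.83, 6.36 and 5.71 CPM in the libraries labelled knockdown and 6.92, 6.89 and 6.14 CPM in WT. The groups overlapped, and the log2 difference was -0.16 (95% interval -0.44 to 0.12; edgeR adjusted p = 0.403). A gene in the same orientation, AC004805.1, covers 1316 of the 5226 exonic bp of AXIN2. It was not analysed here, so the AXIN2 value is uncertain. NKD1, another feedback inhibitor and target, had 0.970 ± 0.432 CPM in the libraries labelled knockdown and 0.893 ± 0.262 CPM in WT (SD, n = 3 each), and its interval from -0.61 to 0.92 leaves its direction undetermined at this depth.

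All 4 TCF/LEF genes had negative log2 fold changes under each setting tried, of which TCF7 and TCF7L2 passed. TCF7 had 47.0, 43.0 and 38.9 CPM in the libraries labelled knockdown and 49.6, 51.5 and 53.3 CPM in WT, a log2 fold change of -0.27 ± 0.08 (SE; edgeR adjusted p = 0.02). It was lost without labelled knockdown replicate 2 or 3 or WT replicate 2 or 3 (edgeR adjusted p from 0.0754 to 0.0971). TCF7 shares 210 bp of exon on the opposite strand with SKP1, itself lower, at -0.19 ± 0.05 on the log2 scale (SE), and without the strand setting of the counting their reads there cannot be told apart. TCF7L2 had 48.2, 45.6 and 43.2 CPM in the libraries labelled knockdown and 50.9, 57.2 and 51.8 CPM in WT (log2 fold change -0.22 ± 0.07, SE; edgeR adjusted p = 0.0357). That call was lost with DESeq2 (adjusted p = 0.0644) and without labelled knockdown replicate 2 or 3 or WT replicate 2 or 3 (edgeR adjusted p from 0.0707 to 0.202). LEF1, the most abundant of the 4, stood at 56.0 ± 2.70 TPM in the libraries labelled knockdown and 56.2 ± 2.44 TPM in WT (log2 fold change -0.06, 95% interval -0.19 to 0.07). For TCF7L1, mainly a repressor, it was -0.10 (95% interval -0.27 to 0.07).

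The rest of the pathway was described through 4 lists of 121 genes outside the 55. The lists were compiled from general knowledge with earlier results of these data known, so their called shares are descriptive only. Of 99 tested, 13 were higher and 13 were lower (26.3%, against 23.3% of all tested genes), with a median log2 fold change of 0.0084. Without labelled knockdown replicate 2, WT replicate 2 or WT replicate 3 the calls numbered 17. The share called was 21.4% in the extracellular list, 25% among transducers, 22.6% in the planar polarity list and 40% among beta-catenin targets, with median log2 fold changes of -0.16, 0.02, 0.04 and -0.01. The largest fold differences were in the extracellular list, in which 0 of 14 tested genes rose and 3 fell. GPC4, a cell-surface glypican that binds Wnt ligands, had 14, 9 and 14 reads in the libraries labelled knockdown and 94, 83 and 89 reads in WT (log2 fold change -2.63 ± 0.21, SE; edgeR adjusted p = 1.90e-07). GPC3, a second glypican, had 2, 2 and 0 reads in the libraries labelled knockdown and 18, 15 and 23 reads in WT (edgeR adjusted p = 0.000214). APCDD1, a membrane inhibitor of Wnt signalling and a beta-catenin target, had 7, 2 and 11 reads in the libraries labelled knockdown and 34, 29 and 23 reads in WT (log2 fold change -1.89 ± 0.35, SE; edgeR adjusted p = 0.00103). All 3 genes were low in WT as well, with at most 5.85 CPM on average, and kept their calls under all settings in which they were fitted. GPC3 was not fitted with the filter of at least 1 CPM.

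**Figure D4:**
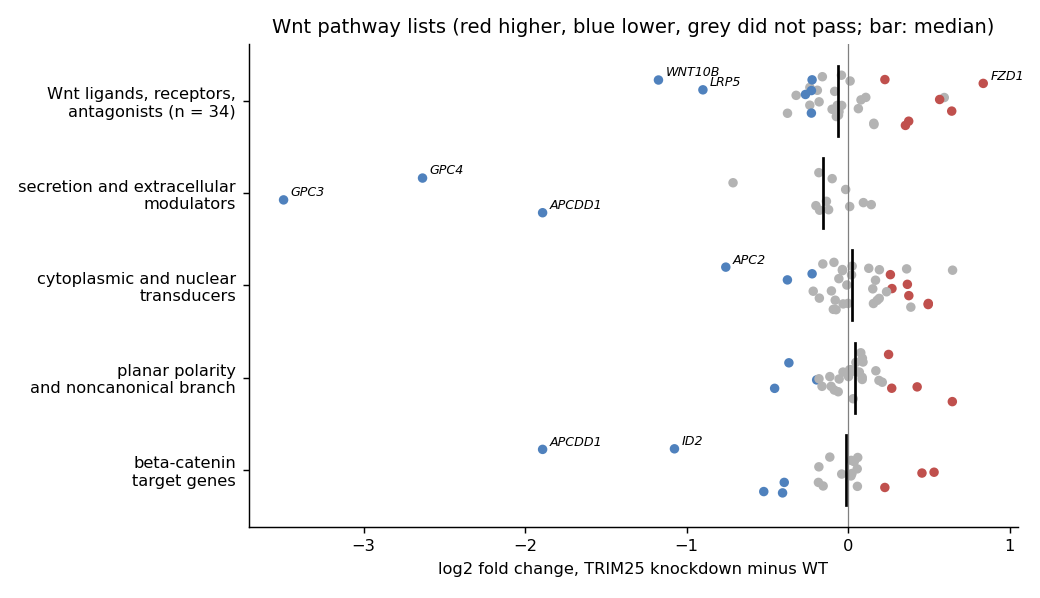
Log2 fold change (labelled TRIM25 knockdown minus WT) of tested genes in the Wnt set and in 4 lists of other pathway genes; red points were higher and blue points lower at an edgeR adjusted p of 0.05, grey points did not pass, and black bars are medians. GPC3, GPC4 and APCDD1 lie farthest to the left; APCDD1 belongs to 2 lists and is drawn in each.

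Of 36 tested cytoplasmic and nuclear transducers, 6 were higher and 3 lower. The ubiquitin ligase gene HUWE1 rose by 0.49 on the log2 scale, and the histone acetyltransferase genes EP300 and CREBBP, beta-catenin coactivators, each rose by 0.37. EP300 was nearly equal in labelled knockdown replicate 1 (141.3 CPM) and WT replicate 1 (140.6 CPM). Over the settings tried the values went down to 0.33 for HUWE1, 0.23 for EP300 and 0.22 for CREBBP. HUWE1, EP300 and CREBBP are 8779 to 14731 bp long. In the longest of 5 length bins (6305 to 93098 bp) 27.6% of all tested genes were higher. The lower genes were led by APC2, an APC relative (-0.76 ± 0.18, SE), and the corepressor gene TLE4 (-0.38 ± 0.07, SE). AMER1, a membrane partner of APC that is also long (8407 bp), was higher by 0.49, and the corepressor gene CTBP1 was lower, at -0.22 ± 0.07 (SE). The CTBP1 groups overlapped, with labelled knockdown replicate 1 (121.8 CPM) above WT replicate 1 (120.6 CPM). Of 31 planar polarity and noncanonical genes, 4 were higher and 3 lower. CELSR1, an atypical cadherin of planar polarity, stood at 74.4 ± 0.798 CPM in the libraries labelled knockdown and 47.6 ± 2.14 CPM in WT (SD, n = 3 each), higher by 0.64 ± 0.07 on the log2 scale (SE; edgeR adjusted p = 2.94e-06). VANGL2, another core polarity gene, was lower, at -0.37 ± 0.09 on the log2 scale (SE), as was the transcription factor gene NFATC4, at -0.46 ± 0.08. VANGL1, INTU and ROCK2 were higher by 0.25, 0.43 and 0.27, and the small GTPase gene RAC1 had a log2 fold change of -0.20 ± 0.05. The ROCK2 groups overlapped, with labelled knockdown replicate 1 (200.5 CPM) below WT replicate 1 (204.7 CPM).

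Most beta-catenin target genes did not pass, and those that did moved in both directions. Of 20 tested outside the 55, 3 rose, 5 fell and 12 did not pass. CCND1, which encodes cyclin D1, stood at 425.0 ± 11.6 CPM in the libraries labelled knockdown and 294.2 ± 7.95 CPM in WT (SD, n = 3 each), higher by 0.53 ± 0.05 on the log2 scale (SE; edgeR adjusted p = 2.10e-06). FOSL1, an AP-1 subunit gene, stood at 326.4 ± 31.8 CPM in the libraries labelled knockdown and 237.9 ± 5.43 CPM in WT (log2 fold change 0.46 ± 0.07, SE; edgeR adjusted p = 9.15e-05), and TBX3 was higher by 0.23. ID2, a helix-loop-helix inhibitor gene, stood at 10.5 ± 0.982 CPM in the libraries labelled knockdown and 22.2 ± 1.58 CPM in WT, lower at -1.08 ± 0.10 on the log2 scale (SE; edgeR adjusted p = 1.15e-06). The adhesion gene L1CAM had a log2 fold change of -0.52 and the ephrin receptor gene EPHB3 one of -0.41. Of the 23 pathway genes named here, 16 kept their calls under all settings in which they were fitted. AMER1, CTBP1, INTU, ROCK2, VANGL1, RAC1 and TBX3 lost theirs without labelled knockdown replicate 2 or WT replicate 2 or 3. The first 5 of these also lost it without labelled knockdown replicate 3, and TBX3 also without WT replicate 1 (edgeR adjusted p from 0.0598 to 0.180 over these fits). Calls were also lost with DESeq2 (AMER1, INTU, TBX3), upper-quartile factors (TBX3), the length adjustment (INTU, VANGL1, TBX3) and the length and GC adjustment (ROCK2, INTU, VANGL1). With the replicate number as a block, AMER1, CTBP1, INTU, ROCK2, VANGL1, RAC1 and TBX3 all lost theirs (edgeR adjusted p from 0.0562 to 0.116).

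Fold change in these libraries followed gene length, and the Wnt genes that rose were long. Across 13640 genes the log2 fold change had a Spearman rho of 0.30 with gene length and of -0.26 with GC content. Across the 34 tested Wnt genes rho with length was 0.57. Genes share libraries and are not independent. Libraries of 1 group also differed from each other along length: the rho of a library's deviation from its group mean with length was -0.383, 0.0703 and 0.379 in labelled knockdown replicates 1, 2 and 3 and 0.410, -0.116 and -0.359 in WT replicates 1, 2 and 3. The tested genes were split by length into 5 bins of equal size. In the longest (6305 to 93098 bp) 27.6% of all genes were higher and 6.71% lower, and it holds FZD1, ROR1 and APC among its 10 Wnt genes. In the next bin (4300 to 6305 bp) 15.3% were higher and 8.35% lower, and its 7 Wnt genes include SFRP1, RNF43 and WNT5A, which rose, and LRP5, TCF7 and TCF7L2, which fell. Below 4300 bp, 0 of 17 Wnt genes rose and DKK3, FZD7 and WNT10B fell. Few genes of any kind rose in these bins. From the shortest bin up, 3.32%, 5.73% and 9.29% of all genes were higher and 16.1%, 13% and 10.9% lower. With a length adjustment the log2 fold change of FZD1 was 0.74, of ROR1 0.56, of SFRP1 0.35 and of LRP5 -0.95, and all 4 still passed. The part of length in these values was not tested beyond this adjustment.

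**Figure D5:**
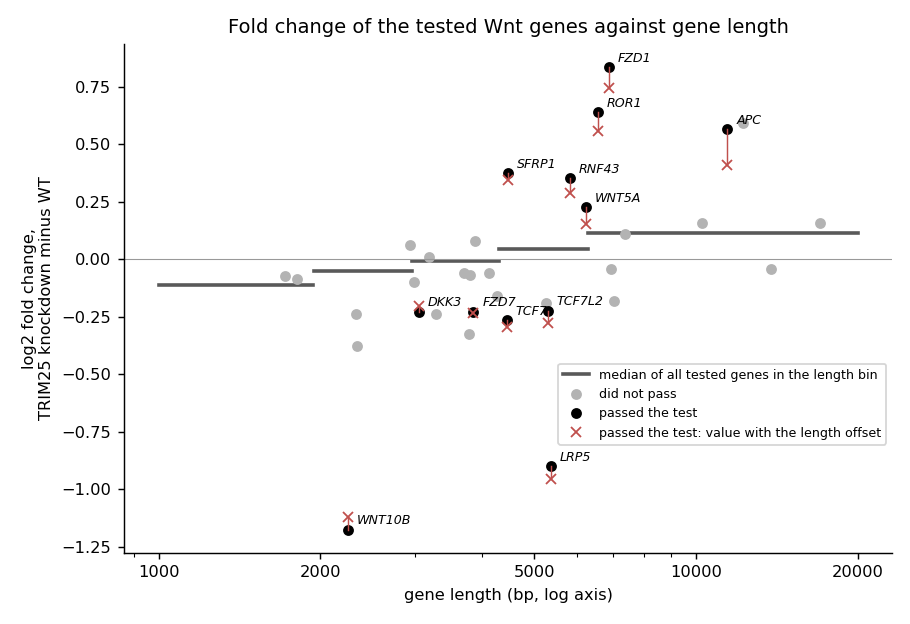
Log2 fold change (labelled TRIM25 knockdown minus WT) of the 34 tested Wnt genes against gene length on a log axis; black points passed the test, grey points did not, red crosses give the length-adjusted value of each passing gene, and horizontal bars are the median of all tested genes in 5 length bins, with the outer bins cut short at the ends of the axis. The bars run from -0.11 in the shortest bin to 0.11 in the longest, while FZD1 lies at 0.83 and 0.74 after adjustment and LRP5 at -0.90 and -0.95.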

How the data were processed

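Total RNA of LN229 cells was sequenced from stranded libraries, 3 labelled TRIM25 knockdown and 3 labelled WT, per the labels. Per the submitters' processing notes, the tools HISAT2, Trim Galore, FastQC and MultiQC are listed with hg19 as the build and no version, in no stated order. How reads were counted, with which annotation and strand setting, is not given in the sources used here. The authors' deposited counts are whole reads per gene symbol, not normalised. The deposited FPKM is the count over a fixed gene length and the column total, from which the gene length was recovered, and the deposited TPM is that FPKM rescaled to the same total in each library.

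Counts were fitted over all 6 libraries in R 4.3.3 with edgeR 4.0.16 (filterByExpr, TMM, glmQLFit, glmQLFTest, group as the only term), and p-values were adjusted by Benjamini-Hochberg over the 14315 genes tested; a call is an adjusted p under 0.05. The filter kept 99.9% of counts. CPM uses TMM-scaled library sizes; TPM is used to compare levels between genes. No 2 libraries of a group agreed within counting error (chi-square over its degrees of freedom 1.95 to 8.54). Named pathway genes are those with the largest called differences, up to 4 per list and direction; every Wnt gene was counted, and those called or with at least 10 CPM were described. The genes and lists were chosen with earlier results of these data known. Settings tried were DESeq2 1.42.0, limma-voom (limma 3.58.1), other scaling factors and filters, length and GC trends, a replicate block and each library left out; the length and GC trend together was chosen after seeing the data. GC content and exon overlaps came from GENCODE 29 and promoters from RefSeq, both on another build than the files.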

Additional observations from a re-analysis of the deposited data

How the results depend on the processing

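Of the 12 called Wnt genes, 6 kept their calls under all 15 alternatives and none of the 12 changed direction; WNT10B, NKD1 and GPC3 were not fitted with the filter of at least 1 CPM. Over the fits that each left out 1 library, the number of all genes called ranged from 1826 to 4941, that of Wnt genes higher from 4 to 7, of Wnt genes lower from 2 to 7 and of other pathway genes called from 17 to 37, and the TRIM25 log2 fold change from 1.17 to 1.25. The highest counts came without labelled knockdown replicate 1. With the replicate number as a block, 1891 genes were called in all, 4 Wnt genes were higher, 2 were lower and 17 other pathway genes were called. WNT5A, WNT10B, FZD7, RNF43, TCF7 and TCF7L2 lost their calls in that fit (edgeR adjusted p from 0.0605 to 0.104). For same-numbered libraries 1, 2 and 3, departures from the group mean correlated at -0.191, 0.00821 and -0.217, none clearly positive. No label gives the number a meaning, so no pairing was used. Labelled knockdown replicate 1 and WT replicate 3 correlated at 0.222, and labelled knockdown replicate 3 and WT replicate 1 at 0.19. The remaining pairs of different number lay between -0.029 and 0.0208. The source of these correlations was not tested. DESeq2 called 2572 genes in all, with 5 Wnt genes higher and 4 lower. With the length trend 5 Wnt genes were higher and 8 lower. The length and GC trend gave 4501 genes in all, with 6 Wnt genes higher and 8 lower. Only uncalled Wnt genes changed sign, and the cause was not tested. FZD8 was at -0.0091 with upper-quartile factors, and over the fits without 1 library ranged from -0.041 (without WT replicate 2) to 0.074; it was -0.0028 without labelled knockdown replicate 1. WNT6 was at 0.0074 with the length trend, 0.11 with length and GC, and between -0.28 and 0.14 with 1 library left out (0.13 without labelled knockdown replicate 3, 0.14 without WT replicate 3). NKD1 was at -0.016 with the length trend and between -0.22 (without labelled knockdown replicate 3) and 0.45 with 1 library left out. With 1 library left out AXIN1 ranged from -0.21 to 0.032 (0.0030 and 0.032 without labelled knockdown replicates 2 and 3). With length and GC, FZD4 was at -0.021 and LRP6 at -0.0030, and FZD3 ranged from -0.093 to 0.027 with 1 library left out (0.027 without labelled knockdown replicate 1). Ligands and antagonists with few reads are limited by depth: a gene at 0 could have had up to 0.264 CPM in the shallowest library.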

Other observations

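Of the 27 genes in the list of secretion and extracellular modulators, 14 were tested and 13 had too few reads. Besides the 3 that fell, 11 did not pass. Among these were WLS, which carries Wnt ligands to the cell surface, at 80.1 ± 2.59 CPM in the libraries labelled knockdown and 72.7 ± 3.66 CPM in WT (SD, n = 3 each), and PORCN, which attaches their lipid, at 21.6 ± 2.27 CPM in the libraries labelled knockdown and 23.1 ± 1.22 CPM in WT. KREMEN1, a receptor for DKK proteins, stood at 63.7 ± 2.36 CPM in the libraries labelled knockdown and 64.3 ± 2.68 CPM in WT, with a 95% interval of the log2 difference from -0.16 to 0.12. The others were ADGRA2, RECK, TSPAN12, LYPD6, TRABD2A, TRABD2B, KREMEN2 and NOTUM, a secreted enzyme that removes the lipid from Wnt ligands.

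The 13 untested genes had 1 to 37 reads over all 6 libraries. The R-spondin genes, whose products stabilise Frizzled receptors, had 2 (RSPO1), 1 (RSPO2), 13 (RSPO3) and 1 (RSPO4). The R-spondin receptor genes LGR5 and LGR6 had 27 and 3. Of secreted antagonist genes, CER1 had 37, FRZB 29, SOSTDC1 5 and SOST 1, and the remaining 3 untested genes, NDP, DKKL1 and DRAXIN, had 29, 14 and 14.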
